A study of Homo sapiens with 14 samples.

Results

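The genes of the autophagy machinery and its cargo receptors were followed in WM9, an established human melanoma cell line, during 96 h of treatment with PLX4720, an inhibitor of the BRAF kinase. The members were 43 genes, chosen by symbol, and every probe whose platform annotation gives one of those symbols was taken, which made 66 of the 47322 probes and 43 of the 20046 named genes on the arrays. The rule itself uses symbols and no measured value. The labels describe cells kept in 10 µM PLX4720 for 12, 24, 48, 60, 72 or 96 h, with a DMSO (solvent) group at 96 h as the control, and each of these 7 groups had 2 arrays, called biological replicates in the design text. All groups were the same line grown in the same medium, and WM9 cells are 1 line from 1 tumour, so the replicate error describes this line. No DMSO array was made at 12 to 72 h. In the comparisons of those times with DMSO, hours in culture and the drug therefore cannot be told apart, and only the comparison at 96 h is matched in time.

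Autophagy encloses cytoplasm in a double membrane, the autophagosome, and delivers it to the lysosome for breakdown. The ULK1 kinase complex starts the process when mTORC1, the kinase complex that reports nutrient supply, is less active, and a class III phosphatidylinositol 3-kinase complex then marks the growing membrane with the lipid PI3P. WIPI proteins bind this lipid, ATG2 and ATG9 supply and redistribute membrane lipid, and a conjugation cascade attaches proteins of the ATG8 family (LC3 and GABARAP) to the membrane, where cargo receptors bind them. Inhibitors of BRAF are known to induce autophagy in melanoma cells. An array measures transcripts and not the flux through the pathway, and in bulk samples fewer cells of a type and less RNA per cell cannot be told apart.

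Values are background-corrected, quantile-normalized log2 signals. A difference of 1 is a 2-fold difference, and levels are not compared between genes. A gene was represented by its brightest probe above background on at least 2 arrays, and all 43 members passed this filter. For 38 of them the probe was above background on all 14 arrays. The probes of ATG13 and ATG2B were above it on 13 arrays, that of AMBRA1 on 12, that of STX17 on 5 and that of NBR1 on 4, so the values of STX17 and NBR1 are mostly near background. A gene is said to have risen or fallen where limma's moderated test, fitted over the 12742 genes that passed the filter and all 7 groups, gave a Benjamini-Hochberg adjusted p below 0.05. Some counts are also given at an unadjusted p below 0.05. The share of all tested genes at that unadjusted threshold was not counted, so nothing is read from those counts.

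Of 7 tested genes that ERK signalling is known to induce, 6 fell and 1 did not pass the test at 96 h, where 13.5% of all tested genes fell. That gene, PHLDA1, had 14.06 and 13.96 at 96 h of PLX4720, against 13.88 and 14.09 in DMSO. SPRY4, an inhibitor of the pathway that ERK itself induces, had log2 signals of 7.94 and 7.68 after 96 h of PLX4720, against 13.09 and 13.08 in DMSO. DUSP6, the ERK phosphatase, had 10.3 and 10.01, against 13.3 and 13.01 in DMSO. Of 11 melanocytic markers 10 were above background on at least 2 arrays, among them SOX10, PMEL and MLANA, and 5 were above it on all arrays. The probe of PMEL was above background on 12 arrays and that of MLANA on 7. These markers did not move together at 96 h against DMSO. PMEL differed by 4.96, MLANA by 1.46 and SOX10 by 0.74, S100B by -2.53 and S100A1 by -0.54. The defining leukocyte genes PTPRC, CD3E and ITGAM, the fibroblast collagens COL1A1 and COL3A1, the keratinocyte genes KRT5, KRT1, DSG3 and TP63 and the endothelial genes VWF and CDH5 were above background on no array. Of those lists, 5 of 8 leukocyte, 4 of 7 fibroblast, 2 of 6 keratinocyte and 2 of 5 endothelial genes were above background on at least 2 arrays. The summed log2 level of the fibroblast list was 12.44 to 13.11 on the PLX4720 arrays and 13.68 to 13.94 on the DMSO arrays, and the other 3 lists overlapped between the agents: 13.37 to 14.56 and 13.82 to 14.09 for leukocytes, 13.15 to 13.59 and 12.97 to 13.38 for keratinocytes, and 7.89 to 8.64 and 8.02 to 8.05 for endothelium. These sums follow the brightest genes of a list. By gene, CD2 and CD68 of the leukocyte list rose at 96 h, COL1A2 and PDGFRB of the fibroblast list and KRT14 of the keratinocyte list fell, and no endothelial gene passed the test. The probe of KRT14 was above background on 2 of the 14 arrays, so no fall is read from it. With each array scaled to the median of all its probes, CD68 gave 0.08 and no longer passed (limma adjusted p of 0.802). The calls of CD2, COL1A2 and PDGFRB held under that scaling. The probe of PDGFRB was above background on 6 of the 14 arrays. It had 6.88 and 6.51 at 96 h of PLX4720, near background, against 7.79 and 8.22 in DMSO, so no size is read from its fall. CD2 had 8.88 and 8.87 at 96 h of PLX4720, against 7.39 and 7.53 in DMSO. The part of these genes in the results was not tested.

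The DMSO arrays stood apart in brightness and agreement. Median raw signals were 231.9 to 315.8 on the PLX4720 arrays and 365.8 and 369.8 on the DMSO arrays, and within each PLX4720 time the array of replicate 1 was the brighter. The SD over genes of the difference between a group's 2 arrays was 0.301 to 0.348 in the PLX4720 groups and 0.559 in DMSO. Over the 43 members it was 0.25 to 0.365 in the PLX4720 groups and 0.591 in DMSO. The DMSO arrays differed by more than 1 on the log2 scale for 3 members, ATG12, TAX1BP1 and BNIP3L.

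Of the 43 members, 10 rose and 1 fell at 96 h against DMSO. Over all tested genes 16.4% rose and 13.5% fell in that comparison, and 29.9% were called in either direction. The median log2 difference of the members was 0.29 and that of all tested genes 0.07. At 12 h against DMSO 5 members rose and 3 fell, where 9% of all tested genes rose and 8.26% fell, and both medians were close, at 0.07 for the members and 0.06 for all genes. Both comparisons share the DMSO arrays, so their values are not independent. The test pools the spread over all groups, and the DMSO pair differed most. With noisier arrays given less weight (array weights), and with only the groups compared fitted, 0 members rose and 1 fell at 12 h. The rises of ATG10, ATG4A, GABARAPL1, SQSTM1 and FUNDC1 at 12 h were lost under both. At 96 h 5 rose and 0 fell under both, so the fall of PIK3C3 was lost. Over all tested genes these settings called 6.69% and 6.8% at 12 h, and 14.9% and 18% at 96 h.

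These counts moved with the scaling of the arrays. When each array was scaled to the median of all its probes instead of quantile-normalized, 1 member rose and 2 fell at 96 h, with 752 genes higher and 2887 lower over all tested genes, and 0 members rose and 4 fell at 12 h. This scaling moved the median of all genes at 96 h from 0.07 to -0.27 and turned the members' median from 0.29 to -0.16, so that the members' median then lay 0.11 above that of all genes, against 0.22 with quantile normalization. At 12 h the median of all genes became -0.14 and that of the members -0.19. When only probes above background on all arrays set the scale, an alternative chosen after the data were seen, the split was 10 and 1 at 96 h and 4 and 3 at 12 h. The directions below are those under quantile normalization, and the values under median scaling of all probes are given beside the calls against DMSO, between 96 and 12 h and between consecutive times that this scaling ended.

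**Figure D1:**
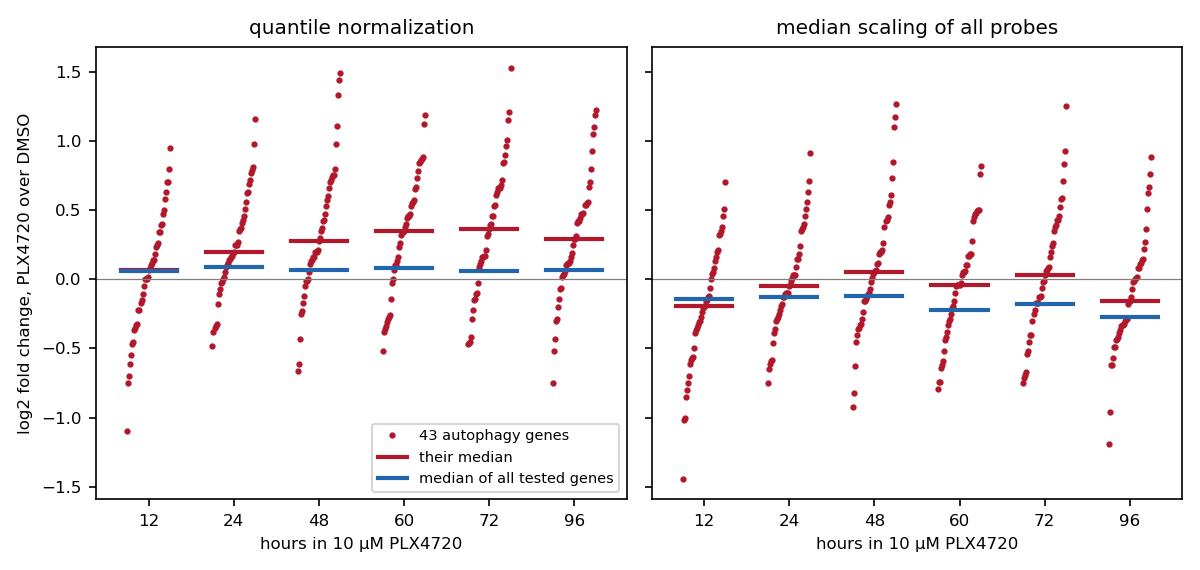
Log2 difference of the 43 autophagy genes against DMSO (y axis) at each of the 6 hours of PLX4720 treatment (x axis), under quantile normalization (left) and under scaling to the median of all probes (right). Each red point is a gene, sorted within a time, the red line is their median and the blue line the median of all 12742 tested genes. The members' median at 96 h is 0.29 on the left and -0.16 on the right, and on both sides it lies above that of all genes from 24 h on.

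Between those ends, 9 members rose at 24 h, where 11.5% of all tested genes rose, and 12 rose at 48 h, where 13.9% did. At 60 h 9 rose, against 14.1% of all genes, and at 72 h 12 rose, against 15.1%. No member fell by limma's adjusted p at 24, 48, 60 or 72 h, where 9.31%, 11.2%, 11.1% and 12.7% of all genes fell. At an unadjusted p below 0.05, 0 members were lower at 24 h, 1 at 48 h, 0 at 60 h and 0 at 72 h. These counts use each gene's brightest probe. With limma's p adjusted over probes, dimmer probes of UVRAG (-0.87, 0.0381), ATG3 (-0.86, 0.0431) and GABARAPL2 (-0.77, 0.0473) were lower at 24 h. That of ATG3, above background on 7 arrays, was lower at 60 h as well (-0.88, 0.032). Dimmer probes of ATG10 (1.08, 0.0143) and ATG4A (1.02, 0.00932) were higher at 24 h. Median scaling of all probes gave 1 riser and 0 fallers at 24 h, 4 risers and 1 faller at 48 h, 0 risers and 1 faller at 60 h, and 3 risers and 2 fallers at 72 h. Over the 6 times 19 members passed the test against DMSO at least once and 24 never did. The share of all tested genes that passed at least once was not counted. The members ATG4A, GABARAPL1 and SQSTM1 were higher at every one of the 6 times under quantile normalization.

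**Figure D2:**
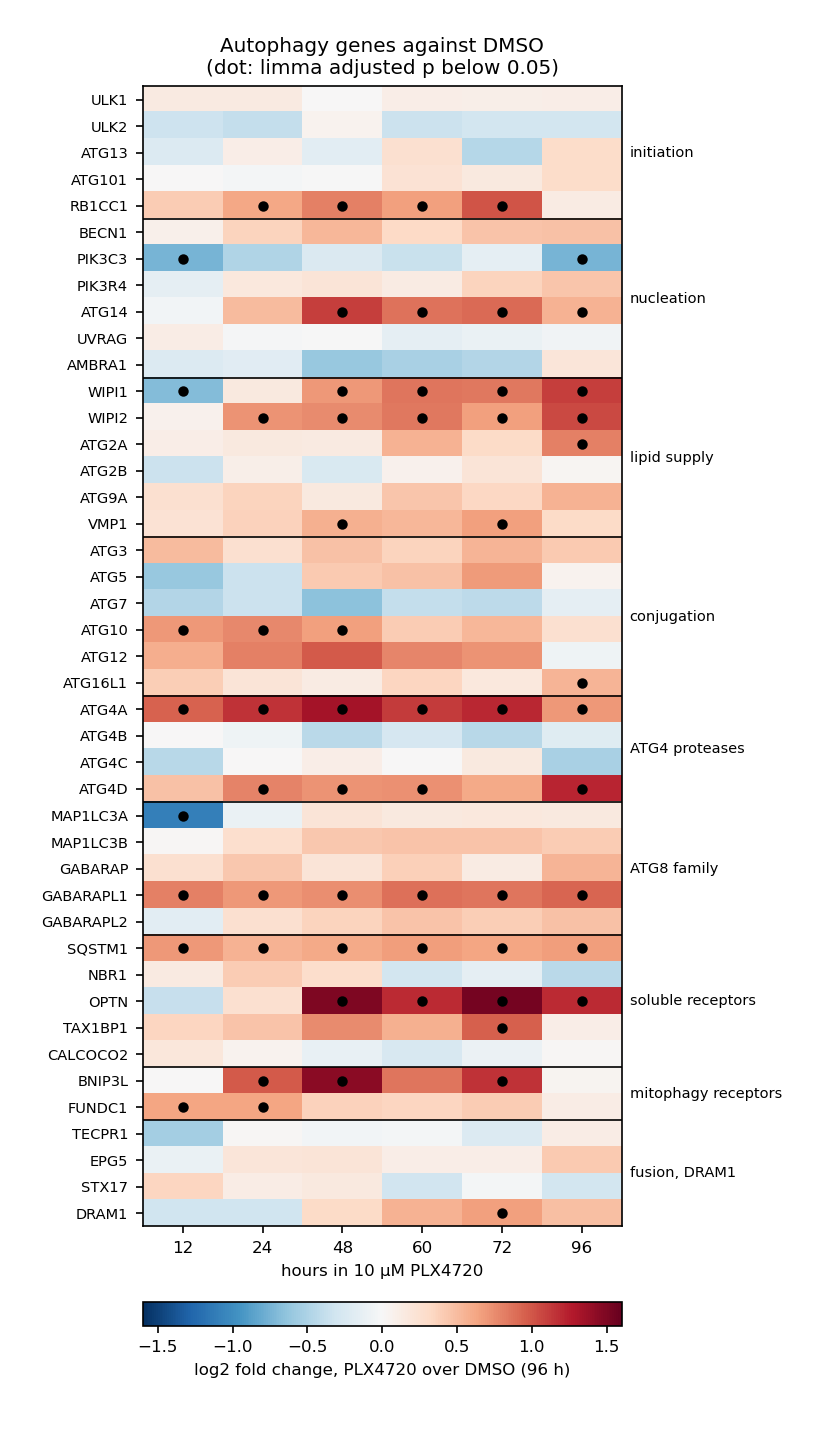
Log2 difference between each PLX4720 time and DMSO at 96 h (colour, red higher and blue lower in PLX4720) for the 43 autophagy genes in rows, grouped by role, and the 6 treatment times in columns. A dot marks an adjusted p below 0.05 under quantile normalization; the rows of ATG4A, GABARAPL1 and SQSTM1 carry a dot at all 6 times, and many dots are lost under median scaling of all probes.

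Of the ULK1 kinase complex, 0 of 5 members passed the test at 96 h or at 12 h against DMSO. At an unadjusted p below 0.05 the count was 0 at 96 h and 1 at 12 h. ULK1, the kinase that starts autophagosome formation, had log2 signals of 12.09 and 12.68 at 96 h of PLX4720 and 12.16 and 12.4 in DMSO, a difference of 0.1 with a 95% interval of -0.5 to 0.71. Its arrays overlapped at both ends of the treatment, and a second probe gave 0.07. The values of ULK2, ATG13 and ATG101 differed from DMSO by -0.3, 0.29 and 0.29 at 96 h, none past the test.

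RB1CC1, also called FIP200, the scaffold of the ULK1 complex, was higher between 24 and 72 h and not at the ends. Its log2 signals were 10.59 and 10.56 after 12 h, 10.69 and 10.9 after 24 h, 11.14 and 10.81 after 48 h, 10.76 and 10.89 after 60 h, 11.18 and 11.21 after 72 h, and 10.21 and 10.4 after 96 h of PLX4720, against 10.28 and 10.07 in DMSO. The arrays of 12 to 72 h all lay above both DMSO arrays, while those of 96 h overlapped them. The difference reached 1.01 ± 0.18 (SE) at 72 h, with a limma adjusted p of 0.000948, and was 0.62, 0.8 and 0.65 at 24, 48 and 60 h. The call at 72 h held under every alternative run; the calls at 24 and 60 h were lost without the replicate 2 DMSO array (0.51 and 0.54) and under median scaling (0.36 and 0.28), which also ended the call at 48 h (0.56). The step from 72 to 96 h was -0.88 with an adjusted p of 0.1.

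Of the 6 genes of the lipid kinase complex, ATG14 rose and PIK3C3 fell at 96 h. ATG14 is the subunit that directs the complex to sites of autophagosome formation. Its log2 signals were 10.82 and 10.65 after 12 h, 11.29 and 11.3 after 24 h, 11.91 and 11.87 after 48 h, 11.68 and 11.62 after 60 h, 11.6 and 11.76 after 72 h, and 11.26 and 11.43 after 96 h of PLX4720, against 10.96 and 10.6 in DMSO. From 24 h on all PLX4720 arrays lay above both DMSO arrays, with the highest values at 48 h. The difference was 1.11 ± 0.17 at 48 h, with an adjusted p of 0.000485, and that call held under every alternative run. At 96 h it was 0.56 ± 0.17, with an adjusted p of 0.0261; it was 0.38 without the replicate 2 DMSO array and 0.15 under median scaling, neither past the test. Median scaling also ended the calls at 60 and 72 h (0.5 and 0.58).

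PIK3C3, the lipid kinase itself, had log2 signals of 9.97 and 10.08 at 96 h of PLX4720, against 11.16 and 10.4 in DMSO. It had 9.9 and 10.17 at 12 h of PLX4720. At both times the PLX4720 arrays lay below both DMSO arrays, although these were 0.76 apart. The difference was -0.75 ± 0.22 at each time, with adjusted p of 0.0228 at 96 h and 0.036 at 12 h. Without the replicate 1 DMSO array it was -0.38 at 96 h and -0.37 at 12 h, and neither passed the test. Under median scaling it was -1.19 at 96 h, past the test, and -1 at 12 h, with an adjusted p of 0.0505. The call at 96 h was lost with array weights and with only the groups compared fitted. BECN1, the Beclin 1 subunit, gave 0.47 at 96 h, and PIK3R4, UVRAG and AMBRA1 gave 0.44, -0.06 and 0.19, none past the test against DMSO.

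The transcription factors TFEB, TFE3 and MITF are known to bind the E-box CACGTG in promoters of lysosomal and autophagy genes, which is why promoters were searched for it. In RefSeq's promoters (GRCh38.p14), which run from 250 bases before a gene's start to just after it, 36 of the 43 members had an entry. The motif CACGTG, read on both strands, was found in 2 of these 36 (5.6%), ATG14 and ATG3, and in 7.26% of 35116 promoters in all. The longer TCACGTGA, which contains CACGTG, was found in ATG3 (2.8% of the members' promoters, and 0.98% of all). The FOXO motif GTAAACA was found in CALCOCO2 (2.8%, and 3.42% of all). The shares are small counts and describe these letters in this window alone. The stretches that hold the motif upstream of the start, printed to show it beside the only member promoters that carry it, are given 5′ to 3′ on the gene's minus strand with CACGTG in capitals. ATG14 is at chr14:55411831-55411878 and ATG3, an enzyme of the conjugation cascade, at chr3:112561963-112562007.
ATG14: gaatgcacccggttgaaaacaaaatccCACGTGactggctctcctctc
ATG3: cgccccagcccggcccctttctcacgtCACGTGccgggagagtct
In ATG14 the motif's first base lies 21 bases before the start, and in ATG3 it lies 18 bases before it. ATG3 has a further CACGTG whose first base lies 5 bases past the start, within TCACGTGA and outside the printed stretch. ATG14 rose from 48 h on, as given above. ATG3 had 12.13 and 12.18 at 96 h of PLX4720, against 12 and 11.48 in DMSO, a difference of 0.42 with an adjusted p of 0.174, and passed the test at no time.

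Among the 6 genes that read PI3P or supply membrane lipid, WIPI1, WIPI2 and ATG2A rose at 96 h. WIPI1, a PI3P-binding protein, had the highest rise between the first and last time of any member. Its log2 signals were 11.4 and 11.17 after 12 h, 12.18 and 12.08 after 24 h, 12.65 and 12.72 after 48 h, 12.9 and 12.79 after 60 h, 12.98 and 12.67 after 72 h, and 13.17 and 13 after 96 h of PLX4720, against 11.83 and 12.14 in DMSO. The arrays at 12 h lay below both DMSO arrays, and those from 48 h on above both. The difference was -0.7 ± 0.18 at 12 h, with an adjusted p of 0.0192, and 1.1 ± 0.18, or 2.15-fold, at 96 h, with an adjusted p of 0.000617. Between 96 and 12 h of PLX4720 it was 1.8 ± 0.18, or 3.48-fold, with an adjusted p of 9.71e-06, and 1.69 under median scaling. The early fall was lost without the replicate 2 array of either group (-0.58 without that of 12 h and -0.54 without that of DMSO), and the rise at 96 h was 0.67 under median scaling, with an adjusted p of 0.0585. The calls at 48, 60 and 72 h were lost under that scaling as well, at 0.38, 0.45 and 0.46.

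WIPI2, the relative that recruits ATG16L1 to the membrane, had log2 signals of 10.37 and 10.38 at 96 h of PLX4720, against 9 and 9.64 in DMSO. It had 9.44 and 9.35 at 12 h, within the range of the DMSO arrays. The difference at 96 h was 1.05 ± 0.2, or 2.07-fold, with an adjusted p of 0.00178. It was also higher at 24, 48, 60 and 72 h, by 0.66 to 0.84, and the calls at 24, 48 and 72 h were lost without the replicate 1 DMSO array (0.4, 0.43 and 0.34). Under median scaling the difference at 96 h was 0.62, with an adjusted p of 0.0681, and those at 24, 48, 60 and 72 h were 0.46, 0.54, 0.48 and 0.38, none past the test.

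ATG2A, a lipid transfer protein, had 11.07 and 11.04 at 96 h of PLX4720, against 9.86 and 10.65 in DMSO. The difference was 0.8 ± 0.23, with an adjusted p of 0.0175, and was 0.41 without the replicate 1 DMSO array and 0.36 under median scaling, neither past the test. VMP1, a lipid scramblase of the endoplasmic reticulum, had 13.57 and 13.53 at 48 h and 13.55 and 13.73 at 72 h, against 13.19 and 12.76 in DMSO. Its differences were 0.57 ± 0.18 and 0.66 ± 0.18, with adjusted p of 0.0372 and 0.0171, and without the replicate 2 DMSO array they were 0.36 and 0.45 and lost the call. Under median scaling they were 0.21 and 0.26, with adjusted p of 0.564 and 0.449. ATG9A, the scramblase on ATG9 vesicles, gave 0.55 at 96 h with an adjusted p of 0.063, and ATG2B gave 0.03.

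In the conjugation cascade, 1 of 6 members rose at each end: ATG16L1 at 96 h and ATG10 at 12 h. ATG16L1, which places the ATG12-ATG5 conjugate at the membrane, had 12.2 and 12.08 at 96 h of PLX4720, against 11.55 and 11.64 in DMSO. The difference was 0.54 ± 0.17, with an adjusted p of 0.03. It was 0.12 under median scaling and 0.5 without the replicate 1 DMSO array, neither past the test, and a second probe gave 0.35 with an adjusted p of 0.16 over probes.

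ATG10, the E2-like enzyme that passes ATG12 to ATG5, had 10.06 and 10.14 at 12 h of PLX4720, against 9.61 and 9.18 in DMSO. It had 9.43 and 9.87 at 96 h, overlapping DMSO. The difference was 0.7 ± 0.21 at 12 h (adjusted p of 0.0369), 0.77 at 24 h and 0.66 at 48 h, and all 3 were lost without the replicate 2 DMSO array (0.49, 0.56 and 0.44) and under median scaling (0.46, 0.51 and 0.43). ATG5, ATG7, ATG12 and ATG3 passed the test against DMSO at no time. ATG5, the partner of ATG12, did differ among the PLX4720 times (F test, adjusted p of 0.015): it had 8.33 and 8.35 after 12 h, 8.79 and 8.44 after 24 h, 9.59 and 9.15 after 48 h, 9.18 and 9.66 after 60 h, 9.74 and 9.52 after 72 h, and 8.94 and 9.08 after 96 h, against 9.4 and 8.5 in DMSO. Both of its arrays at 12 h lay below both DMSO arrays, which were themselves 0.89 apart.

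The ATG4 proteases trim ATG8 proteins before conjugation and release them afterwards, and ATG4A and ATG4D rose among the 4. ATG4A had 10.75 and 11.06 after 12 h, 11.19 and 11.03 after 24 h, 11.18 and 11.39 after 48 h, 11.03 and 11.11 after 60 h, 11.11 and 11.23 after 72 h, and 10.39 and 10.91 after 96 h of PLX4720, against 10.27 and 9.63 in DMSO. All 12 PLX4720 arrays lay above both DMSO arrays. The difference was 1.33 ± 0.23, or 2.51-fold, at 48 h (adjusted p of 0.0012), and the calls at 24, 48 and 72 h held under every alternative run. The ends were less stable: 0.95 ± 0.23 at 12 h (adjusted p of 0.0143) and 0.7 ± 0.23 at 96 h (adjusted p of 0.0394), with 0.63 and 0.38 without the replicate 2 DMSO array and 0.7 and 0.27 under median scaling, none past the test. The call at 60 h was also lost under median scaling (0.76). A second probe gave 0.94 at 12 h and 0.69 at 96 h.

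ATG4D had 9.36 and 9.07 at 96 h of PLX4720, against 7.76 and 8.24 in DMSO. The difference was 1.22 ± 0.23, or 2.32-fold, with an adjusted p of 0.00147, and this call held under every alternative run, median scaling (0.88) included. The other probe of ATG4D, above background on all 14 arrays, gave 0.45 with an adjusted p of 0.212 over probes. It passed the test against DMSO at no time, so both the size and the call depend on the probe. ATG4D was also higher at 24, 48 and 60 h, by 0.72 to 0.79, calls that were lost without the replicate 1 DMSO array (0.55, 0.48 and 0.49), under median scaling (0.63, 0.61 and 0.47) and with the mean of its probes. ATG4B and ATG4C gave -0.2 and -0.52 at 96 h, neither past the test.

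Of the 5 ATG8 family members, GABARAPL1 rose at both ends and MAP1LC3A fell at 12 h. GABARAPL1 had 11.79 and 11.79 after 12 h, 11.56 and 11.78 after 24 h, 11.88 and 11.56 after 48 h, 11.87 and 11.86 after 60 h, 11.89 and 11.78 after 72 h, and 11.92 and 11.9 after 96 h of PLX4720, against 10.99 and 10.97 in DMSO. The 12 PLX4720 arrays all lay above both DMSO arrays, and the F test did not call a difference among the PLX4720 times (adjusted p of 0.778). The difference was 0.93 ± 0.17, or 1.9-fold, at 96 h (adjusted p of 0.00109) and 0.8 ± 0.17 at 12 h (adjusted p of 0.00502). Under median scaling both were 0.51, with adjusted p of 0.101 and 0.147, and at 24, 48, 60 and 72 h the differences were 0.4, 0.45, 0.5 and 0.52, none past the test. The calls at 24 and 48 h were lost without the replicate 2 array of 24 h (0.58) and the replicate 1 array of 48 h (0.58).

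MAP1LC3A, which encodes a form of LC3, had 11.6 and 12.05 after 12 h, 12.71 and 12.91 after 24 h, 12.97 and 13.28 after 48 h, 13.07 and 13.08 after 60 h, 13.05 and 13.13 after 72 h, and 12.91 and 13.25 after 96 h of PLX4720, against 12.7 and 13.14 in DMSO. Only the arrays of 12 h lay below both DMSO arrays. The difference was -1.1 ± 0.22 at 12 h, or 2.14-fold lower, with an adjusted p of 0.00369, and 0.16 ± 0.22 at 96 h, with an adjusted p of 0.608. The early fall and the difference of 1.26 ± 0.22 between 96 and 12 h (adjusted p of 0.000706) held under every alternative run, median scaling included (-1.44 and 1.16).

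MAP1LC3B, the form of LC3 most often used as an autophagosome marker, gave 0.41 ± 0.21 at 96 h, with an adjusted p of 0.165, and arrays of 12.41 and 12.28 in PLX4720 against 11.86 and 12.02 in DMSO. GABARAP gave 0.54 at 96 h, with an SE of 0.46, the widest of the members that never passed the test, and its 2 arrays within a group differed by up to 1.42. GABARAPL2 had 14.28 and 14.36 at 96 h of PLX4720, against 13.84 and 13.87 in DMSO, a difference of 0.47 with an adjusted p of 0.0536. Its probes disagreed at 12 h: the brighter gave -0.17 and the dimmer, above background on all 14 arrays, -1.3 with an adjusted p of 0.00345 over the 22961 probes, of which 13.3% were called in that comparison.

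**Figure D3:**
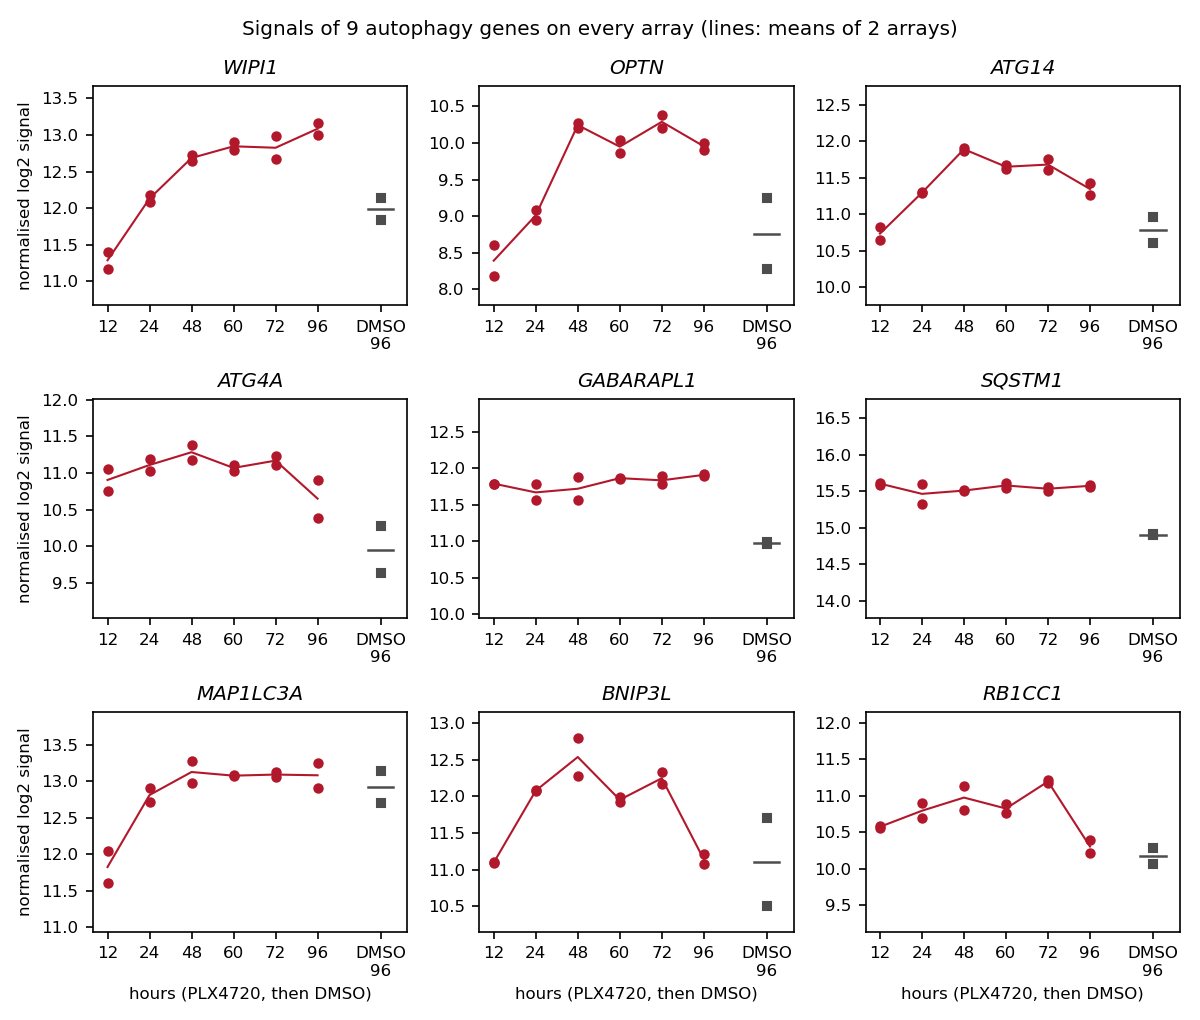
Normalized log2 signal (y axis) of 9 autophagy genes on each of the 14 arrays, by hours of PLX4720 (red points, line through the means of 2 arrays) and in DMSO at 96 h (grey squares, bar at the mean). Every panel spans the same range on the y axis. Under quantile normalization, GABARAPL1 and SQSTM1 lie above DMSO on all 12 PLX4720 arrays, differences that do not pass the test under median scaling of all probes, WIPI1 and OPTN rise over the times, MAP1LC3A is low at 12 h alone, and BNIP3L and RB1CC1 are back within or near the DMSO range at 96 h.

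Among the soluble cargo receptors, SQSTM1 and OPTN rose at 96 h. SQSTM1, also called p62, which ties ubiquitinated cargo to LC3, had 15.59 and 15.56 at 96 h and 15.62 and 15.59 at 12 h of PLX4720, against 14.91 and 14.9 in DMSO. At the times between, its PLX4720 arrays held 15.33 to 15.62, all above both DMSO arrays. The difference was 0.67 ± 0.16 at 96 h (adjusted p of 0.0064) and 0.7 ± 0.16 at 12 h (adjusted p of 0.00858). Raw signals ran the other way: they were 39820 to 55980 on the PLX4720 arrays and 55374 and 56576 on the DMSO arrays, near the top of a scale whose highest signal per array was 65685 to 72790. Under median scaling the differences were 0.22 at 96 h and 0.33 at 12 h, with adjusted p of 0.403 and 0.272, and at 24, 48, 60 and 72 h they were 0.15, 0.07, 0.18 and 0.16, so the rise of SQSTM1 depends on the normalization. When probes above background on all arrays set the scale, its calls at 12 to 72 h were lost as well, and that at 96 h was not. The call was lost without either array of 12, 48 or 72 h and without the replicate 2 array of 24 or 60 h at those times, with differences of 0.42 to 0.7.

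OPTN, optineurin, a receptor for ubiquitinated mitochondria and bacteria, had 8.18 and 8.6 after 12 h, 8.94 and 9.08 after 24 h, 10.21 and 10.28 after 48 h, 9.86 and 10.04 after 60 h, 10.2 and 10.38 after 72 h, and 9.91 and 10 after 96 h of PLX4720, against 9.25 and 8.27 in DMSO. From 48 h on every PLX4720 array lay above both DMSO arrays. The difference was 1.49 ± 0.26, or 2.8-fold, at 48 h (adjusted p of 0.00123), 1.53 ± 0.26 at 72 h (adjusted p of 0.000863) and 1.19 ± 0.26 at 96 h (adjusted p of 0.00444). The calls at 48 and 72 h held under every alternative run, and those at 60 and 96 h were lost under median scaling (0.82 at 60 h, and 0.76 at 96 h with an adjusted p of 0.103). The difference at 96 h was 1.68 without the replicate 1 DMSO array and 0.7 without the replicate 2 array, both past the test.

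TAX1BP1, another ubiquitin receptor, was higher at 72 h, with 13.33 and 13.64, against 13.04 and 12.01 in DMSO. The difference of 0.96 ± 0.29 (adjusted p of 0.026) was 0.45 and no longer past the test without the replicate 2 DMSO array, and 0.59 and lost under median scaling. NBR1 and CALCOCO2 (NDP52) passed the test at no time, with differences of -0.43 and 0.02 at 96 h.

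The mitophagy receptors, which mark mitochondria for removal, were BNIP3L and FUNDC1. BNIP3L (NIX) had 11.1 and 11.09 after 12 h, 12.07 and 12.09 after 24 h, 12.8 and 12.28 after 48 h, 11.99 and 11.92 after 60 h, 12.17 and 12.33 after 72 h, and 11.21 and 11.07 after 96 h of PLX4720, against 11.7 and 10.5 in DMSO. From 24 to 72 h all its arrays lay above both DMSO arrays, and at both ends they lay between them. The differences were 0.98 at 24 h, 1.44 ± 0.3 at 48 h (adjusted p of 0.0036) and 1.15 at 72 h, 0.85 at 60 h had an adjusted p of 0.0536, and 0 at 12 h and 0.04 at 96 h were not past the test either. Without the replicate 2 DMSO array those at 24 and 72 h were 0.37 and 0.54 and lost the call, and the mean of its probes lost all 3. Median scaling gave 0.71 and 0.83 at 24 and 72 h, not past the test, and 1.17 at 48 h, past it with an adjusted p of 0.046. Its second probe, above background on all 14 arrays, gave -0.3, 0.1 and -0.13 at 24, 48 and 72 h. Their limma adjusted p over probes were 0.586, 0.875 and 0.81, so the calls at these times rest on the brighter probe. The second probe gave -0.93 at 12 h and -0.73 at 96 h, with adjusted p of 0.076 and 0.118 over probes. The step from 72 to 96 h was -1.11 with an adjusted p of 0.167.

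FUNDC1, a receptor on the outer mitochondrial membrane, was higher early. It had 11.38 and 11.34 at 12 h and 11.46 and 11.26 at 24 h of PLX4720, against 10.7 and 10.76 in DMSO. At 96 h it had 10.95 and 10.75, overlapping DMSO. The difference was 0.63 ± 0.17 at 12 h (adjusted p of 0.0213) and 0.63 at 24 h (adjusted p of 0.0188). Under median scaling both were 0.35, not past the test, and either call was also lost without 1 of its own 2 arrays, at 0.53 to 0.73.

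Leaving out 1 of a time's own 2 arrays ended further calls against DMSO, mostly with the difference little changed. At 96 h the calls of ATG14 (0.48 and 0.65), ATG16L1 (0.49 and 0.6), ATG2A (0.79 and 0.82) and PIK3C3 (-0.7 and -0.81) were lost without either array of that time, and that of ATG4A (0.44) without its replicate 2. At 12 h the same held without either array for ATG10 (0.66 and 0.74) and PIK3C3 (-0.62 and -0.89), and for ATG4A (0.8) without replicate 2.

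Of the genes of fusion with the lysosome and DRAM1, 0 of 4 passed the test at 96 h or 12 h against DMSO, and at an unadjusted p below 0.05, 1 was higher at 96 h and 1 lower at 12 h. STX17, the SNARE of the closed autophagosome, was mostly near background. EPG5, a tether, gave 0.42 at 96 h with an SE of 0.32. DRAM1, a lysosomal membrane protein known as a target of p53, had 11.61 and 11.9 at 72 h of PLX4720, against 11.34 and 10.84 in DMSO. The difference was 0.66 ± 0.22, with an adjusted p of 0.0392, and was 0.41 and not past the test without the replicate 2 DMSO array. It was 0.35, with an adjusted p of 0.335, under median scaling.

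The comparison of 96 h with 12 h of PLX4720 sets late against early treatment without a difference from DMSO. The DMSO arrays still enter the spread, which is pooled over all groups. Hours in culture and hours of drug cannot be told apart in this comparison either. Of the 43 members, 11 rose and 1 fell, against 15.1% of all tested genes that rose and 14% that fell. The median difference was 0.28 for the members and 0.01 for all genes. Under median scaling 5 rose and 0 fell, with medians of 0.08 and -0.12, and when probes above background on all arrays set the scale, 9 rose and 0 fell. By role, the risers were 3 of 6 lipid supply genes (WIPI1, WIPI2 and ATG2A), 2 of 6 lipid kinase genes (ATG14 and PIK3R4), 2 of 5 ATG8 genes (MAP1LC3A and GABARAPL2), ATG4D, OPTN, TECPR1 and DRAM1, and FUNDC1 fell.

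WIPI1, WIPI2, MAP1LC3A and OPTN held this call under every alternative run. OPTN differed by 1.57 ± 0.26, or 2.96-fold (adjusted p of 0.000633), and WIPI2 by 0.98 ± 0.2 (adjusted p of 0.00266). DRAM1 had 11.38 and 11.77 at 96 h, against 10.61 and 10.93 at 12 h, a difference of 0.8 ± 0.22 (adjusted p of 0.0147), which was 0.64 without the replicate 1 array of 12 h and 0.6 without the replicate 2 array of 96 h and lost the call.

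TECPR1, which links the ATG12-ATG5 conjugate to the lysosome, had 10.72 and 10.49 at 96 h, against 10 and 9.88 at 12 h, a difference of 0.67 ± 0.2 (adjusted p of 0.0233). GABARAPL2 differed by 0.64 ± 0.17 (adjusted p of 0.0125), with 14.28 and 14.36 at 96 h and 13.53 and 13.84 at 12 h. PIK3R4, the VPS15 subunit that holds PIK3C3, had 10.3 and 10.23 at 96 h, against 9.93 and 9.43 at 12 h, a difference of 0.58 ± 0.21 with an adjusted p of 0.0488. In all 3 genes the arrays of 96 h lay above those of 12 h.
Several calls between 96 and 12 h were lost when 1 array was left out, and mostly not through 1 array alone. The call of ATG2A was lost without any 1 of the 4 arrays compared (0.68 to 0.72). That of PIK3R4 was lost without either array of 96 h (0.54 and 0.62). It was also lost without either array of 24, 48, 60 or 72 h, at an unchanged 0.58. The calls of TECPR1 (0.55) and ATG4D (0.6) were lost without the replicate 1 array of 96 h, and those of ATG14 (0.53) and GABARAPL2 (0.6) without its replicate 2. Without the replicate 2 array of 12 h the differences were 0.33 for PIK3R4, 0.41 for ATG4D, 0.53 for ATG14, 0.68 for ATG2A and 0.6 for TECPR1, and without the replicate 1 array of 12 h GABARAPL2 gave 0.48, and none of these passed the test. FUNDC1 fell, by 0.51 on the log2 scale (adjusted p of 0.0362), and this call was lost without any 1 of the 4 arrays compared (-0.41 to -0.61). Under median scaling the differences were 0.38 for PIK3R4, 0.46 for ATG14, 0.52 for ATG2A, 0.5 for ATG4D, 0.47 for TECPR1, 0.66 for DRAM1 and -0.68 for FUNDC1, and none of these passed the test, while GABARAPL2 did, at 0.56. The other probe of ATG4D gave 0.26 between 96 and 12 h, with a limma adjusted p of 0.513 over probes. That of GABARAPL2 gave 1.3, with an adjusted p of 0.00175 over probes.

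**Figure D4:**
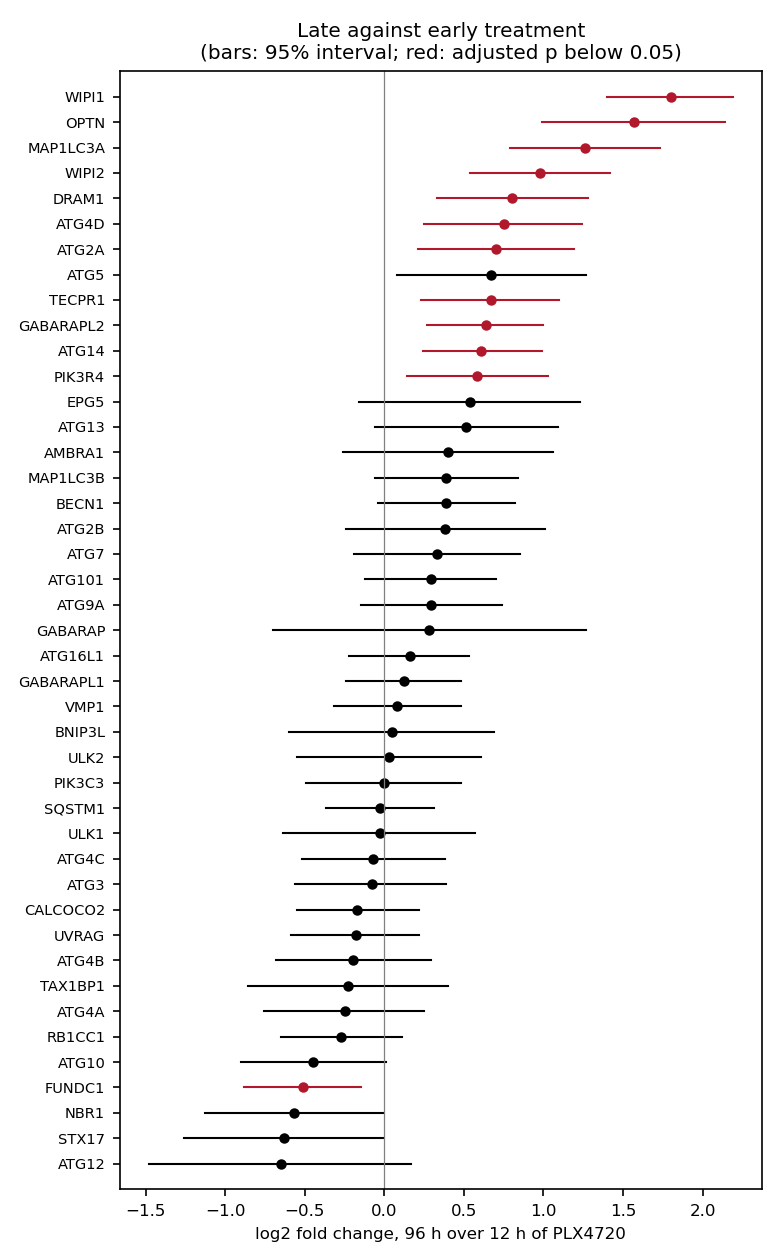
Log2 difference between 96 h and 12 h of PLX4720 (x axis) for the 43 autophagy genes, sorted, with 95% intervals from limma (bars). Red marks the 12 genes with an adjusted p below 0.05 under quantile normalization; WIPI1 at 1.8, OPTN at 1.57 and MAP1LC3A at 1.26 lead and FUNDC1 is at -0.51, and 5 genes pass under median scaling of all probes.

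Between consecutive times, members passed the test only in the steps up to 48 h. From 12 to 24 h 2 members rose and 0 fell, where 6.04% of all tested genes rose and 5% fell: WIPI1 by 0.84 ± 0.18 (adjusted p of 0.00924) and MAP1LC3A by 0.99 ± 0.22 (adjusted p of 0.00966). From 24 to 48 h OPTN alone rose, by 1.24 ± 0.26 (adjusted p of 0.0163), and 0 members fell, where 2.35% of all genes rose and 3.3% fell. At an unadjusted p below 0.05, 8 were higher and 0 lower in the first step and 5 higher and 0 lower in the second. The share of all genes at that threshold was not counted, so this is not read as a result about the members. The calls of WIPI1, MAP1LC3A and OPTN were each lost when 1 array was left out. For OPTN this held for any 1 of the arrays compared (1.17 to 1.31). For WIPI1 it held for the replicate 2 array of 12 h (0.73) and either array of 24 h (0.79 and 0.89). For MAP1LC3A it held for the replicate 1 array of 12 h (0.77) and the replicate 2 array of 24 h (0.88). Median scaling ended the calls of WIPI1 (0.84, adjusted p of 0.0605) and OPTN (1.28, adjusted p of 0.0603) and not that of MAP1LC3A (0.98).

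No member passed limma's adjusted threshold between 48 and 60 h, 60 and 72 h or 72 and 96 h, and over all tested genes 0%, 0% and 0.0471% did. At an unadjusted p below 0.05, 0 members were higher and 1 lower in each of the first pair of steps, and 2 were higher and 7 lower from 72 to 96 h. Nothing is read from these counts either, for want of the share of all genes. The F test across the 6 PLX4720 times, which does not use a difference from DMSO, called 9 of the 43 members, against 28.1% of all tested genes: RB1CC1, ATG14, WIPI1, WIPI2, ATG5, MAP1LC3A, OPTN, BNIP3L and DRAM1. Their lowest mean was at 12 h in all but RB1CC1, where it was at 96 h, and the highest was at 48 h for ATG14, MAP1LC3A and BNIP3L, at 72 h for RB1CC1, ATG5, OPTN and DRAM1, and at 96 h for WIPI1 and WIPI2. The range of the time means was 1.9 for OPTN, 1.8 for WIPI1, 1.44 for BNIP3L and 0.88 to 1.3 for the other 6.

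For 20 members no comparison with DMSO, no difference between 96 and 12 h and no F test passed. Their differences from DMSO over the 6 times lay between -0.66 and 0.98, with SE of 0.18 to 0.46, so that differences of about the size called in other members could not be told from 0 in the noisier ones. They included ULK1, ULK2, ATG13 and ATG101 of the initiating kinase complex, BECN1, the enzymes ATG3 and ATG7, MAP1LC3B, GABARAP, NBR1 and CALCOCO2. ATG12 had the highest difference among them, 0.98 at 48 h, with DMSO arrays of 11.73 and 10.25. The share of all tested genes that passed none of these tests was not counted.

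Other genes of the pathway were listed by role. Of 37 tested autophagy genes outside the members, 13 rose and 1 fell at 96 h, with a median of 0.47, and 4 rose and 1 fell at 12 h, with a median of 0.11. Over all tested genes 16.4% rose and 13.5% fell at 96 h, and 9% and 8.26% at 12 h. Median scaling gave 4 and 3 at 96 h, and array weights 6 and 0. PINK1, the kinase that marks damaged mitochondria for removal, had 13.43 and 13.47 at 96 h of PLX4720, against 11.33 and 11.89 in DMSO. The difference was 1.84 ± 0.2, or 3.58-fold, with an adjusted p of 1.83e-05, and was 1.43 and past the test under median scaling. At 12 h PINK1 had 11.49 and 11.45, overlapping DMSO.

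TEX264, a receptor for autophagy of the endoplasmic reticulum, had 11.89 and 11.54 at 96 h, against 10.15 and 10.78 in DMSO, a difference of 1.25 ± 0.21 (adjusted p of 0.000618). WDR45 (WIPI4), a PI3P-binding partner of ATG2, had 12.17 and 11.9, against 10.61 and 11.09 in DMSO, a difference of 1.19 ± 0.2 (adjusted p of 0.000629). TMEM41B, a scramblase that works with VMP1, had 10.56 and 10.74, against 12.14 and 11.09 in DMSO. It was the only gene of the list that fell, by 0.97 on the log2 scale (adjusted p of 0.0214), and its difference was -0.44 without the replicate 1 DMSO array.

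Of 24 tested genes that regulate nutrient sensing, 8 rose and 3 fell at 96 h, where 16.4% of all tested genes rose and 13.5% fell, and 1 rose and 3 fell under median scaling. DEPTOR, an inhibitory subunit of mTOR complexes, had 8.85 and 8.74 at 96 h of PLX4720, against 10.64 and 10.62 in DMSO. The difference was -1.84 ± 0.17, or 3.57-fold lower, with an adjusted p of 6.52e-06, and at 12 h it was already -1.72 (adjusted p of 2.54e-05). DDIT4, an inhibitor of mTORC1 induced by stress, had 13.83 and 13.71 at 96 h, against 12.31 and 12.65 in DMSO, a difference of 1.29 ± 0.2 (adjusted p of 0.00036).

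The sestrins, which restrain mTORC1 when amino acids are scarce, did not move together. SESN2 had 9.21 and 8.69 at 96 h, against 7.74 and 7.88 in DMSO, a difference of 1.14 ± 0.22 (adjusted p of 0.00192). SESN1 had 9.86 and 10, against 10.88 and 10.67 in DMSO, and SESN3 7.8 and 7.85, against 8.76 and 9.24 in DMSO, differences of -0.85 and -1.18 (adjusted p of 0.00241 and 0.00104). At 12 h SESN1 was higher, by 0.68 (adjusted p of 0.0163), so its difference from DMSO changed sign over the treatment. Under median scaling SESN1 was not past the test at 12 h, with 0.4. RPTOR, the subunit raptor that defines mTORC1, had 9.27 and 9.11 at 96 h, against 8 and 8.37 in DMSO, a difference of 1 ± 0.19 (adjusted p of 0.00141) that had an adjusted p of 0.0556 under median scaling, as SESN2 had 0.0678.

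Of 10 tested transcriptional regulators of the pathway, 3 rose and 0 fell at 96 h, with 5 higher and 0 lower at an unadjusted p below 0.05, and 16.4% of all tested genes rose. Median scaling gave 1 riser, TFEB, which is also 1 of the 3 above, and array weights gave 1, FOXO1. TFEB, which drives lysosomal and autophagy genes, had 7.74 and 7.72 at 96 h of PLX4720, against 6.46 and 7.18 in DMSO, and its probe was above background on 3 of the 14 arrays, so that it passed the filter only through its highest values. Its fitted difference was 0.91 ± 0.26 (adjusted p of 0.0196), and was 0.53 without the replicate 1 DMSO array; no rise is read from a value this near background. FOXO1 and FOXO4, forkhead factors that act on autophagy genes, had 9.88 and 9.95 and 11.56 and 11.86, against 9.14 and 8.87 and 10.68 and 11.02 in DMSO. Their differences were 0.91 and 0.87 (adjusted p of 0.00441 and 0.0153), and 0.47 and 0.45 under median scaling, neither past the test.

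TFE3, the relative of TFEB, gave 0.25 at 96 h with an adjusted p of 0.413. MITF, the melanocytic member of the same family, had 10.34 and 10.18 after 12 h, 11.23 and 11.05 after 24 h, 11.77 and 11.44 after 48 h, 11.58 and 11.4 after 60 h, 11.63 and 11.78 after 72 h, and 11.31 and 11.08 after 96 h of PLX4720, against 11.01 and 10.03 in DMSO. At 96 h its difference from DMSO was 0.68 ± 0.26, with an adjusted p of 0.0707, and both its arrays lay above both DMSO arrays.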

How the data were processed

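The 14 arrays held WM9 RNA from 7 groups of 2, read from the labels. Per the labels' protocols cells were lysed in TRI Reagent and the RNA was made into biotinylated cRNA for Illumina arrays. The authors deposited unnormalized signal intensities, linear and 1 value per probe of each array per the file headers, and a table that the values show to be quantile-normalized log2 signals; the software behind both is not given in the sources used here, and neither holds detection p-values. The number of arrays limits the precision. The intensities were background-corrected (normexp, offset 16), log2-transformed and quantile-normalized. An array's background was centred on the mode of its log2 signals, turned back to the linear scale. The threshold was the 0.01 upper tail of a normal curve with the spread of the linear signals below that mode. A gene's brightest probe above the threshold on at least 2 arrays was used. A total of 30113 probes had 1 gene symbol, 8 had several and 17201 were unnamed here; symbols were updated through the gene ID. limma (3.58.1, R 4.3.3) was fitted over 7 groups (7 residual and 5.86 prior degrees of freedom), with Benjamini-Hochberg adjustment over 12742 genes at 0.05, and an F test over the PLX4720 times. Figures were drawn in matplotlib. The fit was tested on simulated data. Alternatives covered scaling, the deposited log2 table, background, filter, probes, array weights, samples fitted, a replicate block and each array left out. Array slides and scan dates were not used here. The members and gene lists were chosen with earlier results of these data known. Named in the text are all members, per-array values being given for those past the threshold at 96 h or 12 h against DMSO or between them; the 3 largest rises and falls at 96 h in each other list; TFEB, TFE3 and MITF; and DUSP6 and SPRY4. Array values of ULK1, MAP1LC3B, and of the members called only at other times or by the F test, were added after the values were seen.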

Additional observations from a re-analysis of the deposited data

Results flagged for a closer look

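For 12 of the 43 members, against 29% of all tested genes, the difference from DMSO was not the same at 96 h as at 12 h of PLX4720. This is by limma's test of 96 h against 12 h itself (adjusted p below 0.05, under quantile normalization). WIPI1 differed most, by 1.8: it was 1.1 above DMSO at 96 h and fell by 0.7 on the log2 scale at 12 h. OPTN differed by 1.57 and MAP1LC3A by 1.26. WIPI2 differed by 0.98, DRAM1 by 0.8, ATG4D by 0.75 and ATG2A by 0.7. TECPR1 differed by 0.67, GABARAPL2 by 0.64, ATG14 by 0.61 and PIK3R4 by 0.58. FUNDC1 differed by -0.51, being 0.12 above DMSO at 96 h and 0.63 above it at 12 h. Both differences were taken from the same DMSO arrays, which cancel in the difference tested and still enter its pooled spread. Under median scaling of all probes 5 of these 12 passed, where 22.4% of all tested genes did. No explanation was tested.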

How the results depend on the processing

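Of 76 member results past the threshold, 13 stayed past it under each of 26 alternatives, and none of the 76 reversed under any of them. Median scaling of all probes ended 58 of the 76 calls, fitting only the groups compared 44, array weights 37 and dropping the filter on dim probes 28. Brackets give the share of all tested genes called under the same setting. At 96 h against DMSO, 11 members were called (29.9%). The count was 3 with median scaling (28.6%), 7 with no filter (14.8%), 5 with array weights (14.9%) and 5 with only the groups compared (18%). At 12 h against DMSO, 8 were called (17.3%), and these settings gave 4 (13.7%), 4 (7.53%), 1 (6.69%) and 1 (6.8%). Under array weights, and with only the groups compared, 0 members rose and 1 fell at 12 h. Between 96 and 12 h, 12 were called (29%), and median scaling gave 5 (22.4%) and no filter 7 (14.9%). By the F test 9 were called (28.1%), and median scaling gave 5 (18.3%), array weights 15 (42%) and only the groups compared 16 (41.1%). Leaving out each array in turn gave 6 to 12 at 96 h, lowest without the replicate 2 array of 96 h; 2 to 12 at 12 h, with 4 and 2 without the replicate 1 and 2 arrays of 12 h; 6 to 14 between 96 and 12 h, lowest without the replicate 2 array of either time; and 6 to 16 by the F test, highest without either DMSO array. A lone array left in a group was assumed to vary like the other groups. With a replicate block the 4 counts were 14 (36%), 8 (23%), 12 (35%) and 10 (36.1%), in the order 96 h, 12 h, 96 against 12 h and F test. The 11 called at 96 h without the block were kept, and BECN1, PIK3R4 and GABARAPL2 were gained. The labels do not say that a number marks a shared batch, and with 2 arrays a group the data cannot settle it, so no pairing was assumed. Deviations of same-numbered arrays correlated by 0.15 to 0.41 between PLX4720 groups and by -0.2 to 0.42 between these and DMSO. The causes were not tested. Members near background, STX17 and NBR1, have differences limited by signal over background.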
